A study of Mus musculus with 2 samples.

Results

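The muscle microRNAs (myomiRs) of the miR-1, miR-133, miR-206, miR-208 and miR-499 families are 9 of the 2202 miRNA genes counted here. They were taken by gene identifier from GENCODE M21. Counts came from 2 microRNA-sequencing libraries that form a single group. The mice were males of the hybrid strain B6CASTF1/J, 4 days old, the tissue is given as left cerebral cortex, and the RNA sequenced was under 30 nt long. No treatment, allele or second tissue is named in the labels, which number the 2 males separately but give both the same donor identifier. Each difference described below is therefore between the library labelled replicate 1 and the library labelled replicate 2, and not between conditions. It has no replicate check.

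MyomiRs are made from a few muscle transcripts and are known as markers of striated muscle, not of cortex. In skeletal muscle, Mir206 and Mir133b are often described as a pair from a shared primary transcript, active in myoblasts and satellite cells. Mir1a and Mir133a come from a pair of duplicated clusters active in heart and skeletal muscle. Mir208a, Mir208b and Mir499 sit in introns of myosin heavy chain genes and are expressed with their hosts, with Mir208a linked to adult heart and Mir208b and Mir499 to slow fibres. Among known targets, miR-1 and miR-206 repress Hdac4 and Pax7, miR-133 represses Srf, and miR-208 and miR-499 repress Sox6.

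The mature sequences show where members are alike and where short reads can tell them apart. RefSeq (build GRCm38.p6) gave at least 1 mature sequence for 6 of the 9 members, namely Mir206, Mir133b, Mir1a-1, Mir499, Mir208a and Mir208b. The other members are Mir1a-2, Mir133a-1 and Mir133a-2. Capitals mark the seed, bases 2 to 8, which pairs with target RNAs, and all sequences run 5′ to 3′.
miR-206-3p: uGGAAUGUaaggaagugugugg
miR-133b-3p: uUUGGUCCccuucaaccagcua
miR-133b-5p: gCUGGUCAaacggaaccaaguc
miR-208a-3p: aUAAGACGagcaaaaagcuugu
miR-208b-3p: aUAAGACGaacaaaagguuugu
miR-499-5p: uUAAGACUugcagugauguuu
The seed of miR-208a-3p and miR-208b-3p is the same, and these arms differ at 3 of 22 positions, all outside the seed. Counted from the 5′ end with the miR-208a base first, the differences are G10A, A16G and C18U. The seed of miR-499-5p differs from theirs at a single base, G8U, and 9 of 21 positions differ between miR-208a-3p and miR-499-5p.

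Each count covers a whole hairpin and pools its mature arms. The hairpins of the 5 members with a RefSeq hairpin are given with both mature arms in capitals, the stretches from which the mature miRNAs are cut. All 5 have the same coordinates in RefSeq and in GENCODE M21.
Mir206 (ENSMUSG00000065559.1, chr1:20679010-20679082, plus strand): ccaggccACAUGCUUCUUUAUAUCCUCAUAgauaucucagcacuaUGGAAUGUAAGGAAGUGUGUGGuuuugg
Mir133b (ENSMUSG00000065480.1, chr1:20682769-20682887, plus strand): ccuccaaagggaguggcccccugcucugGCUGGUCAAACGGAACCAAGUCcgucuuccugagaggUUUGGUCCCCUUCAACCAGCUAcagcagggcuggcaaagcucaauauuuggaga
Mir499 (ENSMUSG00000076312.1, chr2:155622880-155622958, plus strand): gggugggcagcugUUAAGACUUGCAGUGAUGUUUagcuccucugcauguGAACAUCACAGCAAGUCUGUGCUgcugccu
Mir208b (ENSMUSG00000077928.1, chr14:54975700-54975776, minus strand): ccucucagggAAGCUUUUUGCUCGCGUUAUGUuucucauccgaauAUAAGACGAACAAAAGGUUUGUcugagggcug
Mir208a (ENSMUSG00000065432.1, chr14:54949060-54949142, minus strand): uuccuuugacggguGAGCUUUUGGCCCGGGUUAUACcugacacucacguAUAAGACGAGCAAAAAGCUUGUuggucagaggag

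The deposited tables give reads placed at several sites to no gene, so members with near copies can lose reads. Both arms of Mir206, Mir499, Mir208a and Mir208b were found in 1 hairpin each among the 2202 GENCODE M21 hairpins, also when only their first 20 bases were searched. The same held for miR-133b-5p and for miR-1a-1-5p, the only Mir1a arm with a RefSeq sequence. The whole of miR-133b-3p was found in Mir133b alone, but its first 20 bases were also found in Mir133a-1 and Mir133a-2. The hairpin of Mir133b shares a run of 21 nt with each of those. The copies Mir1a-1 and Mir1a-2 share a run of 28 nt, and Mir133a-1 and Mir133a-2 share 31 nt, so a read under 30 nt from the shared stretch cannot be assigned to either copy. For comparison, the longest run shared by Mir206 with either Mir1a copy was 13 nt, and by Mir208a with Mir208b 10 nt. Reads placed at several sites were 46.1% of all reads in the library labelled replicate 1, against 39.8% in the other, and how many of them came from myomiRs was not counted. The values below are therefore uncertain, and may be too low, for Mir133b and for all Mir1a and Mir133a copies.

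Before the members, the libraries themselves stood apart. They held 2999032 and 3577964 own-strand counts, and a count of 0 was taken as at most 3 counts, or 1.00 and 0.838 CPM (own-strand counts divided by that total and multiplied by 1000000). Of 13 miRNA genes of cortical neurons and progenitors, 4 (Mir9-2 and the 3 Mir124a copies) were at 0 in the library labelled replicate 2. They had only 7, 8, 3 and 1 counts in the library labelled replicate 1, too few to be tested. The summed level of all 13 was 4.27% of counts in the library labelled replicate 1, against 0.131% in the other. Of the 13, 9 had counts enough to be tested and 9 were lower in the latter, where 39.3% of all tested genes were lower with TMM scaling and 63.7% with total counts. Mir9-1 (187 and 1 counts) and Mir9-3 (837 and 1) were among them and entered the test through the library in which they were high. Summed over the markers, the library labelled replicate 2 goes against its cortex label. The abundant brain miRNAs Mir9 and Mir124 have copies too, so their counts are uncertain. Intervals here are exact Clopper-Pearson 95% intervals and cover counting error only, because several reads can descend from the same molecule by amplification.

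The myomiRs were nearly absent from the library labelled replicate 1 and took a large part of the library labelled replicate 2. Their summed counts were 219 and 562167, or 0.00730% (interval 0.00637 to 0.00834) and 15.7% (15.7 to 15.7) of own-strand counts. The mean was 7.86% ± 11.1 (SD, n = 2), an SD larger than the mean. In the library labelled replicate 1, 3 of 9 members had any read and 6 were at 0. In its counterpart, 8 of 9 had reads and Mir133a-2 was at 0. From a tissue sample, fewer cells of a type and less RNA per cell cannot be told apart.

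**Figure D1:**
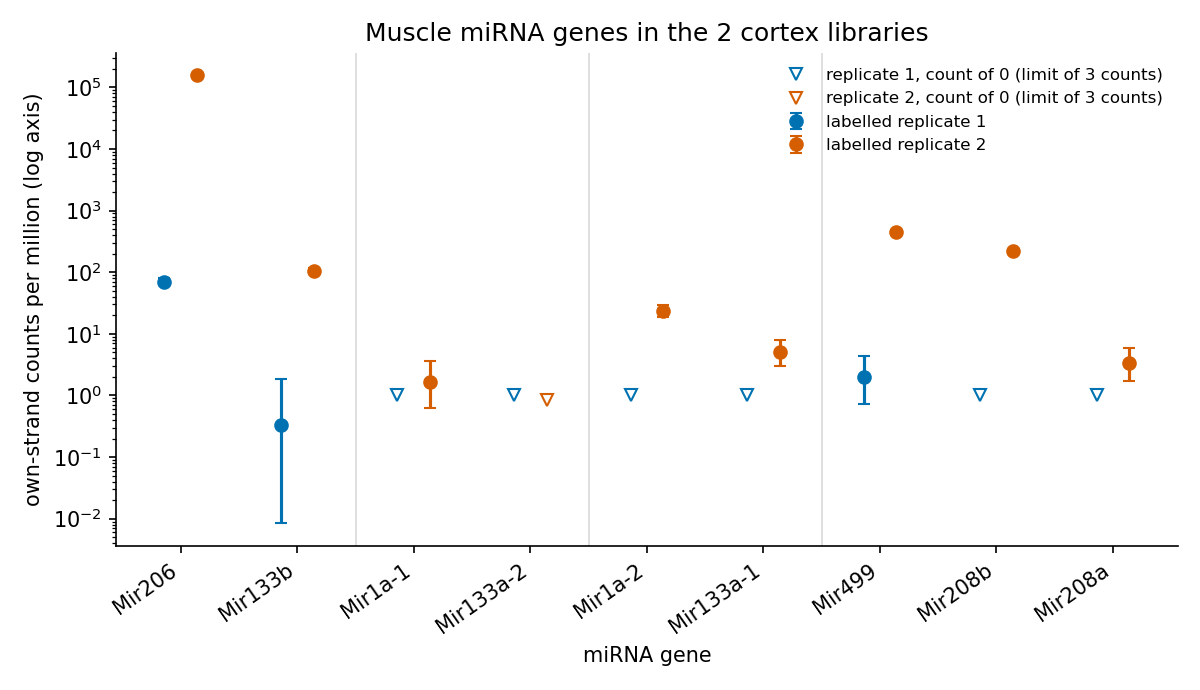
Own-strand CPM (log axis) for the 9 muscle miRNA genes, with blue for the library labelled replicate 1 and orange for replicate 2. Bars are exact 95% counting intervals, open triangles mark a count of 0 at the limit of 3 counts, and grey lines separate the clusters. In every gene with reads the orange point lies above the blue one, from 1.68 CPM for Mir1a-1 to 156302 CPM for Mir206.

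Mir206, which promotes myoblast differentiation, held most of the family reads assigned to a single gene in both libraries. It had 212 counts (70.7 CPM, interval 61.5 to 80.9) in the library labelled replicate 1, against 559242 counts (156302 CPM, interval 155926 to 156678) in the other. It ranked 223 and 1 among all miRNA genes, and reads of this single hairpin were 8.22% of every read of the library labelled replicate 2, unplaced reads included, against 0.00211%. Within the family it held 96.8% of counts (interval 93.5 to 98.7) in the library labelled replicate 1, against 99.5% (99.5 to 99.5) in the other. Reads placed at several sites, which the Mir1a and Mir133a copies can lose, are in neither share. The intervals do not cover that loss, and the shares may overstate the part of Mir206. The fold between libraries was 2211 (interval 1933 to 2542, total counts).

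Mir133b, which lies downstream of Mir206 and belongs to the family known for myoblast proliferation, had far fewer assigned reads than its partner. It had 1 count (0.333 CPM) in the library labelled replicate 1, against 375 counts (105 CPM, interval 94.5 to 116) in the other. The ratio was 314-fold, and its interval of 56.1 to 12448 is wide because it rests on a single read in the denominator. Both genes of the pair were higher in the same library.

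These hairpins are 3686 nt apart on chromosome 1. In GENCODE M21 they lie in the long noncoding RNA gene Gm28653, whose longer transcript has the coordinates of RefSeq Lincmd1, known as a muscle differentiation RNA. Mir133b is exonic in both transcripts of Gm28653. Mir206 overlaps an exon of 1 transcript by 60 of its 73 nt and lies in an intron of the other.

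Although both hairpins lie in the same noncoding RNA gene, the counts of this pair were very unequal. Small RNA counts do not show whether both were cut from the same transcript. In the library labelled replicate 1, each read of Mir133b was matched by 212 reads of Mir206 (interval 37.6 to 8413). In that labelled replicate 2 the ratio was 1491 (interval 1348 to 1655). The ratios were not shown to differ (two-sided Fisher's exact test, p = 0.133, adjusted p = 0.187 over the 2 of 5 planned pairs that had reads enough to be tested). The interval of the former covers the latter, so at 213 reads of the pair a difference of this size was not detectable. This ratio sets a hairpin with unique arms against one that shares 21 nt with other genes.

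The Mir1a and Mir133a clusters encode the miRNAs best known for abundance in heart and adult skeletal muscle, yet few reads were assigned to them. On chromosome 18 (minus strand), Mir1a-2 (ENSMUSG00000106348.1, 10785481 to 10785552) had 0 and 85 counts, or 23.8 CPM (interval 19.0 to 29.4) in the library labelled replicate 2. Its partner Mir133a-1 (ENSMUSG00000065399.2, 10782909 to 10782976) had 0 and 18 counts, or 5.03 CPM (2.98 to 7.95). Against the limit of 3 counts, these were 23.7-fold and 5.03-fold higher, and their exact fold intervals began at 18.9 and 3.69. Both hairpins lie 2504 nt apart in introns of Mir133a-1hg and, on the opposite strand, of the ubiquitin ligase gene Mib1.

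The other copy of the cluster was close to the detection limit. On chromosome 2 (plus strand), Mir1a-1 (ENSMUSG00000070144.1, 180389048 to 180389124) had 0 and 6 counts, or 1.68 CPM (interval 0.615 to 3.65), and Mir133a-2 (ENSMUSG00000065460.1, 180398379 to 180398482) had 0 in both libraries, under the limit of 3 counts. They are 9254 nt apart. In the library labelled replicate 2 the chromosome 18 copy held 85 of 91 Mir1a reads (93.4%, interval 86.2 to 97.5) and 18 of 18 Mir133a reads (100%, interval 81.5 to 100). Both shares describe only reads that could be assigned to a single copy and not the output of the loci. In the same library Mir1a-2 had 4.72 times the counts of Mir133a-1 (interval 2.82 to 8.35), while the library labelled replicate 1 had 0 reads of either, so that the pair could not be compared between libraries. The other cluster had no counts of Mir133a-2 and could not be compared either.

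**Figure D2:**
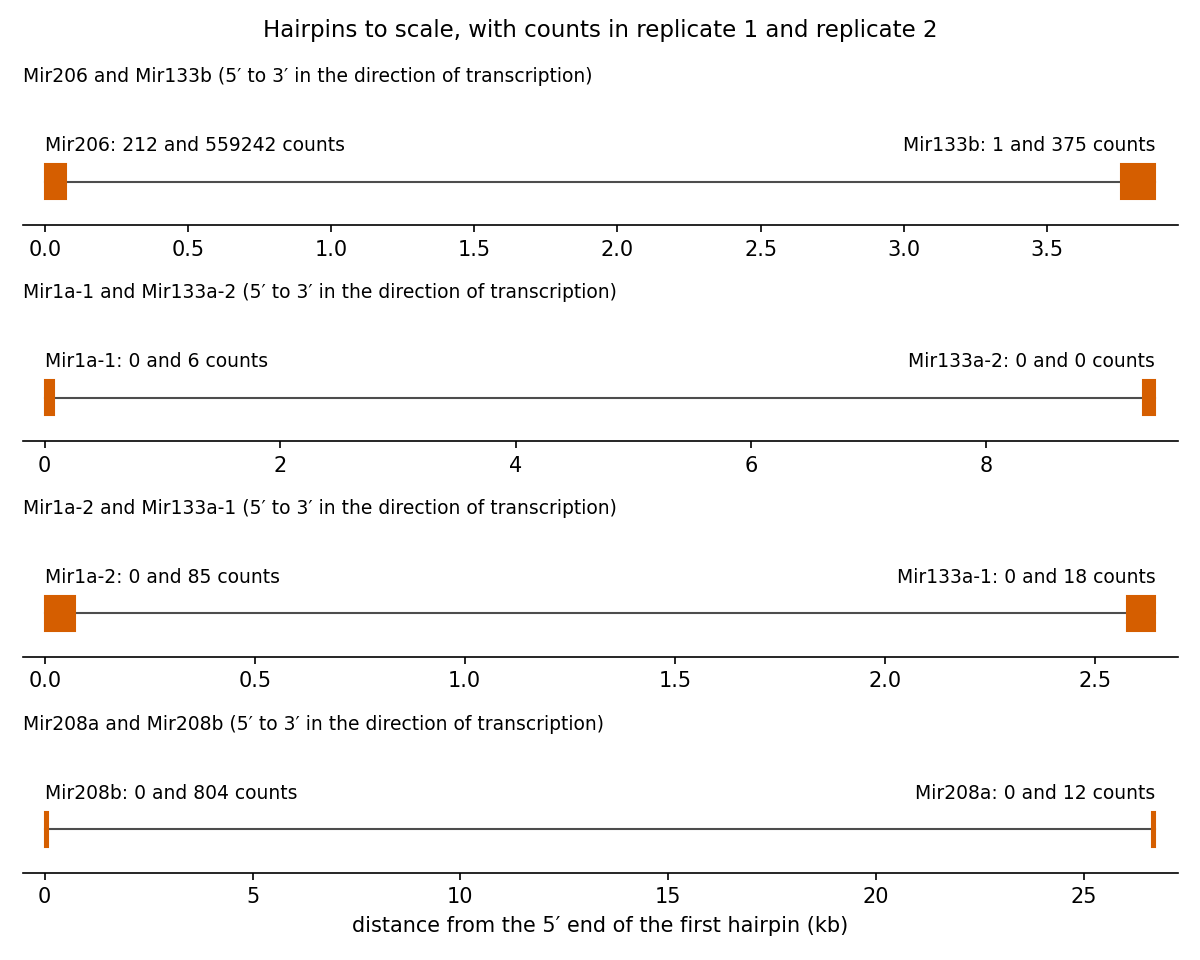
The 4 neighbouring pairs of hairpins drawn to scale in the direction of transcription, each panel with its own distance axis in kb from the 5′ end of the first hairpin, and with counts in replicate 1 and replicate 2. Partners are 3.69, 9.25, 2.50 and 26.6 kb apart, and the first of each pair has more counts than the second in the library labelled replicate 2.

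Of the genes hosted by myosin introns, Mir499 and Mir208b were clearly detected in the library labelled replicate 2 and Mir208a barely. Mir499, in an intron of Myh7b, had 6 counts (2.00 CPM, interval 0.734 to 4.35) in the library labelled replicate 1, against 1625 (454 CPM, interval 432 to 477) in the other, a ratio of 227 (interval 104 to 620). Mir208b, in an intron of the slow myosin gene Myh7, had 0 and 804 counts (225 CPM, interval 209 to 241). Against the limit of 3 counts it was 225-fold higher, and its exact fold interval began at 182. Mir208a, in an intron of Myh6, the fast myosin of adult mouse heart, had 0 and 12 counts (3.35 CPM, interval 1.73 to 5.86). Mir208a was 3.35-fold higher against 3 counts, and its exact fold interval began at 2.33.

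The order within this class in the library labelled replicate 2 was Mir499, Mir208b and Mir208a, and the intervals of these 3 levels did not overlap. Mir499 had 2.02 reads per read of Mir208b (interval 1.86 to 2.20), and Mir208b had 67.0 per read of Mir208a (interval 38.1 to 130). Mir208a and Mir208b lie 26557 nt apart on chromosome 14 in neighbouring host genes. Both arms of each can be told apart (differences G10A, A16G and C18U in the 3p arm above). The library labelled replicate 1 had 6 reads of Mir499 and 0 of Mir208b, a ratio whose exact interval begins at 1.18. It was not shown to differ from the ratio in the other library (two-sided Fisher's exact test, p = 0.187, adjusted p = 0.187 over the 2 testable pairs). Mir208a was thus 0.00213% of family counts in the library labelled replicate 2, where Mir208b and Mir499 were 0.143% and 0.289%.

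**Figure D3:**
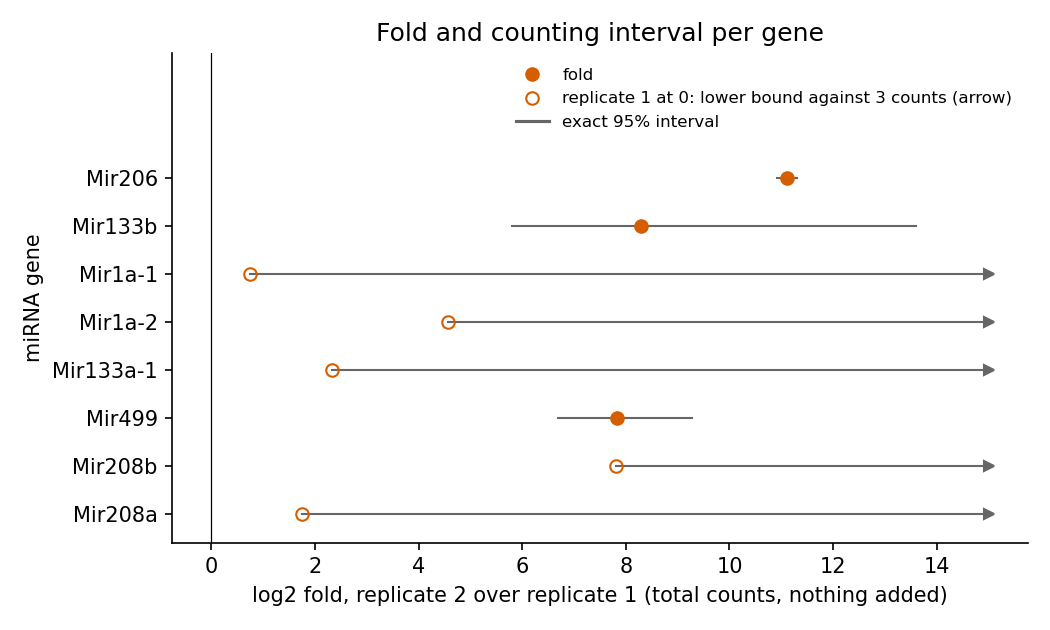
Log2 fold of the library labelled replicate 2 over replicate 1 for the 8 members with reads, from total counts with nothing added. Filled points are folds with exact 95% intervals as lines. Open points with an arrow are folds against 3 counts where replicate 1 was at 0, without the counting error of replicate 2. Of the 3 filled points, Mir206 has the narrowest interval, 10.92 to 11.31.

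The levels in the library labelled replicate 2, counted per hairpin without length scaling since the mature arms are 21 to 23 nt, fell in the order Mir206, Mir499, Mir208b, Mir133b, Mir1a-2, Mir133a-1, Mir208a, Mir1a-1 and Mir133a-2. Neighbours down to Mir133a-1 had intervals that did not overlap. Those of Mir133a-1 and Mir208a overlapped, as did those of Mir208a and Mir1a-1 and of Mir1a-1 and Mir133a-2. The intervals leave out reads lost to several sites. The order is therefore one of assigned reads, and the places of Mir133b and of the Mir1a and Mir133a copies are uncertain. Without Mir206 the remaining 8 members had 7 and 2925 counts, a ratio of 350 (interval 170 to 872). By cluster, the Mir206 and Mir133b pair had 213 and 559617 counts, the myosin-intron genes 6 and 2441, the chromosome 18 cluster 0 and 103, and the chromosome 2 cluster 0 and 6.

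All genes were tested together to set these ratios against the whole table. Of 463 genes with at least 10 counts summed over both libraries, 370 (79.9%) differed, 188 (40.6%) higher in the library labelled replicate 2 and 182 (39.3%) lower, by a two-sided exact binomial test with TMM scaling (a trimmed mean of gene ratios) and Benjamini-Hochberg adjustment at 0.05. With total counts 122 (26.3%) were higher and 295 (63.7%) lower. Of the 9 members, 7 reached 10 counts and 7 were higher under either scaling. The largest adjusted p among them was 1.29e-06 with TMM and 9.55e-04 with total counts, both for Mir208a with its 12 counts. Only Mir206 reached 10 counts in the library labelled replicate 1, and the other 6 entered the test through the library in which they were high. Their count, and the ratios and ranks given for them below, are therefore a description and support nothing about the family. At a 4-fold minimum 110 of 463 genes (23.8%, TMM) were higher, and with no filter 199 of 758 (26.3%). With no filter Mir1a-1 also passed with TMM (exact binomial test, adjusted p = 0.00212) and missed the threshold with total counts (adjusted p = 0.0574).

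With 1 CPM added and total counts, the log2 ratios of the 7 tested members ran from 2.12 (Mir208a) to 11.09 (Mir206) with a median of 6.31 (Mir133b), where the median of all 463 genes was -1.35. With TMM the medians were 7.15 and -0.26, and TMM lies 1.40 above total counts for an abundant gene. Of the 7 members, 4 had a count of 0 in the library labelled replicate 1. With those set to 3 counts and nothing added, the median was 7.81. By the ratio with 1 CPM added, Mir206 ranked 1, Mir208b 4, Mir499 5, Mir133b 8, Mir1a-2 18, Mir133a-1 48 and Mir208a 63 of 463.

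**Figure D4:**
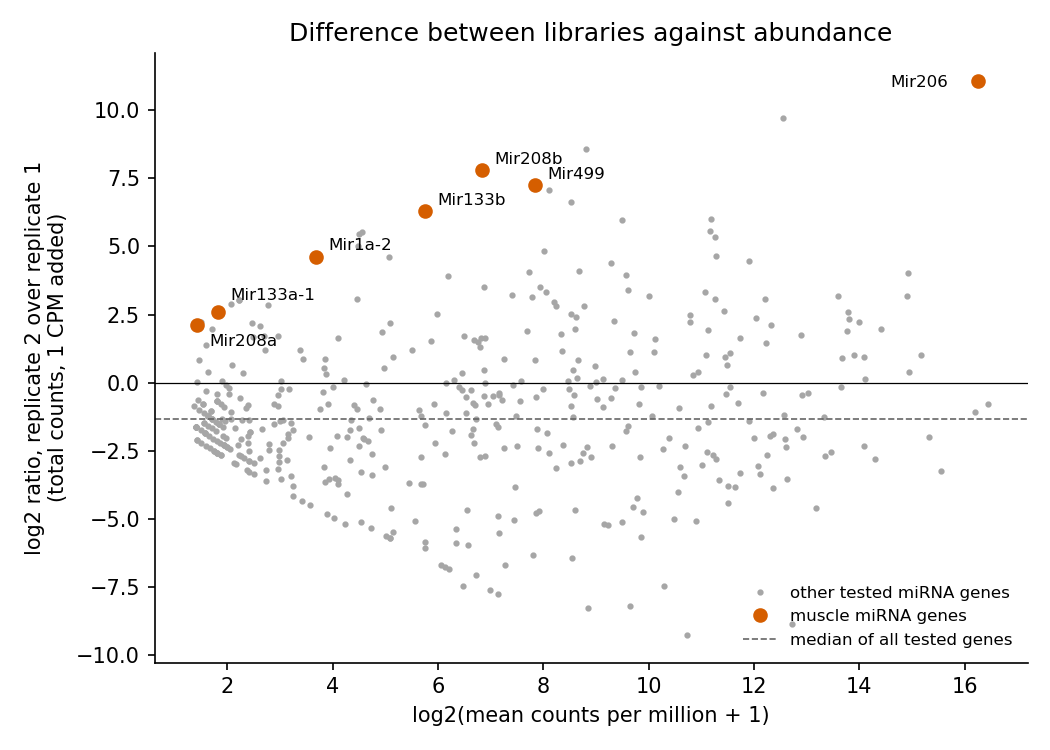
Log2 ratio of the libraries (total counts, 1 CPM added) against log2 of the mean CPM plus 1 for 463 tested genes, with the 7 tested muscle miRNA genes in orange and the median of all genes, -1.35, dashed. The orange points run from 2.12 to 11.09, and Mir208b, Mir1a-2, Mir133a-1 and Mir208a, which had a count of 0 in replicate 1, lie on the upper edge that this count sets.

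A comparison chosen after the values were seen set the family's 2 most abundant genes with unique arms, Mir206 and Mir499, side by side. The ratio of Mir206 to Mir499 reads was 35.3 (interval 16.0 to 97.4) in the library labelled replicate 1, against 344 (interval 328 to 362) in that labelled replicate 2. Two-sided Fisher's exact test on counts gave p = 4.92e-05 (adjusted p = 1.48e-04 over 3 pairs tested), with 6 reads of Mir499 behind the lower ratio. The adjustment does not cover the choice of this pair, so these values are a description. Only counting error enters this test.

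Strand columns bore on a single member. Mir1a-2 lies wholly (72 of 72 nt) opposite to Mir1b, a miRNA gene on the plus strand. Its 85 own-strand reads in the library labelled replicate 2 became 0 in the unstranded column, where Mir1b was at 0 too. The opposite-strand column of Mir1a-2 held 2 and 3 counts, the same as the own-strand counts of Mir1b. The other 8 members overlap no miRNA gene, had 0 opposite-strand counts, and had the same counts in the unstranded and own-strand columns. Mir133c, named for its likeness to this family, had 0 counts in both libraries.

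With total counts and 1 CPM added, the genes of at least 100 counts nearest to the member median of 6.31 were Mir493, Mir205, Mir10a, Mir299a and Mir3544. The list depends on the amount added, since that median was 7.90 with 0.1 CPM. Mir493 had 210 and 16283 counts, Mir205 19 and 2588, and Mir10a 65 and 5063. Mir299a had 281 and 16184 counts and Mir3544 0 and 162, so that the ratio of Mir3544 also depends on the amount added. With 2 libraries this likeness is a single number per gene and says nothing beyond it. Of 12 other miRNA genes linked to muscle differentiation or abundance, chosen with earlier results of these data known, 11 were tested, 10 were higher in the library labelled replicate 2 and 1 (Mir31) was lower with TMM, where 40.6% of all tested genes were higher. With total counts 9 were higher and 2 lower, where 26.3% of all were higher. Their summed share was 1.72% and 13.8%, a ratio of 8.01 (interval 7.94 to 8.08), against 2152 (interval 1885 to 2468) for the myomiRs.

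For each of 5 other cell types 2 marker genes were summed, which do not stand for all miRNAs of those cells. These sums were also higher in the library labelled replicate 2, each by a smaller ratio than the myomiR sum. Smooth muscle markers Mir143 and Mir145a summed to 0.511% and 2.41% of counts, with 4733 and 23717 CPM of Mir143 but 375 and 417 of Mir145a. Endothelial Mir126a and Mir126b summed to 1.20% and 2.29%, nearly all of it Mir126a. Red blood cell markers Mir451a and Mir144 summed to 0.00167% and 0.00682%, leukocyte markers Mir223 and Mir142 to 0.0158% and 0.0349%, and epithelial Mir200b and Mir205 to 0.0137% and 0.0797%. The epithelial pair, singled out like Mir31 after its values were seen, did not move together, with 392 and 265 counts of Mir200b against 19 and 2588 of Mir205. Outside the chosen markers, log2 ratios (total counts, 1 CPM added) of the miR-200 family were -1.29 (Mir200a), -0.238 (Mir200c), -0.083 (Mir429) and 0.307 (Mir141). Those of the immune miRNAs Mir150 and Mir155 were -2.42 and 0.337. The log2 ratio of Mir205 was 6.63 (total counts, 1 CPM added), near the member median of 6.31. That median depends on the amount added and was 7.90 with 0.1 CPM. The part of these cells, or of the lower neuronal markers, in the myomiR difference was not tested.

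Because both members of the chromosome 1 pair and the myosin-intron genes were high in the same library, the starts of their host transcripts are given as RefSeq promoter windows (250 bases before to 50 after the start). Capitals mark matches, on either strand, to CAGCTG (an E-box of the kind bound by MyoD), to CATTCC (the M-CAT core) and to the MEF2 motif, none of which overlap one another here.
Lincmd1 (chr1:20669632-20669931, plus strand): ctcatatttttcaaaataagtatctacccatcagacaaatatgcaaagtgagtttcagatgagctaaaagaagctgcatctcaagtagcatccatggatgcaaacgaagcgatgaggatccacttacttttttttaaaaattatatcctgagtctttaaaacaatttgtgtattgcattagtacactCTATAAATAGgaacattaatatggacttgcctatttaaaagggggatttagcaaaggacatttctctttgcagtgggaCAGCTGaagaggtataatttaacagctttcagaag
Myh7 (chr14:54994577-54994876, minus strand): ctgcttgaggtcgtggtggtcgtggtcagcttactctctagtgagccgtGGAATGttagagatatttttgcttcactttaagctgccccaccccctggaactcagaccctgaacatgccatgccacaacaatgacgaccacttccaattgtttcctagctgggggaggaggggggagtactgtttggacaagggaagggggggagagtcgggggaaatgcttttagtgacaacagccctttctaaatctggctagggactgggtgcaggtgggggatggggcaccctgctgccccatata
The Lincmd1 window held 1 MEF2 match, at position -63 from the start, and 1 CAGCTG, at 15. The Myh7 window held 1 CATTCC on the opposite strand, at -201, and the window of a later Myh7 start (chr14:54994500-54994799) held none of the 3 motifs. In 32851 promoter windows of the same length, 3.19% held a MEF2 match, 16.3% CAGCTG and 14.7% CATTCC. The Myh7b window, host of Mir499, held none of the 3, and the window of Myh6, host of Mir208a, held a CATTCC. The window of Mir1a-1hg, named as host of Mir1a-1 (0 and 6 counts), held 1 CAGCTG, at -133. A match is a run of letters and no evidence of binding, and small RNA counts do not measure promoter activity.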

How the data were processed

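The authors deposited 1 table per library with raw counts for every miRNA gene in 3 columns (unstranded, own strand, opposite strand). The build was mm10 and the annotation GENCODE M21, as stated in text deposited alongside. For the aligner and the counting program, names are not given in the sources used. Entries without a gene stayed out of library sizes and tests, among them reads placed at several sites (46.1% and 39.8%), unplaced (18.4% and 6.11%) and outside miRNA genes (5.55% and 1.47%).

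Own-strand counts were used. Levels are CPM of own-strand totals (2999032 and 3577964). Calls come from an exact binomial test per gene over all genes with at least 10 counts summed, with TMM factors of 1.63 and 0.615 computed on those genes. The edgeR quasi-likelihood test needs replicates per arm and was not run. The test was checked on simulated counts with counting error only and total-count scaling, so the check does not cover TMM or amplification. Gene pairs were compared by Fisher's exact test. A count of 0 was set to 3 counts per library for bounds, which leave out counting error in the other library. P-values measure only counting error between these libraries, since each side of a comparison is 1 library. The labels give 1 donor identifier for both.

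All 9 members are reported, with the 5 other genes of at least 100 counts whose ratio was nearest to the member median. Members and lists were chosen with earlier results of these data known. Coordinates and hosts came from GENCODE M21 and sequences from RefSeq (GRCm38.p6). No genome was used, so mature arms were searched in M21 hairpins. Alternatives were other scalings, filters, priors (0.1 CPM), the unstranded column, a negative binomial test (edgeR, coefficient of variation 0.1) and each library alone. Software was Python 3.11.15 (scipy 1.17.1, numpy 2.4.6, matplotlib 3.10.9, pandas 2.3.3) and R 4.3.3 (DESeq2 1.42.0, edgeR 4.0.16).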

Additional observations from a re-analysis of the deposited data

Results flagged for a closer look

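The opposite-strand column lay outside the main measurement. For Mir1b that column showed 85 counts in replicate 2 and 0 in replicate 1, a count taken as at most 3. The same number, 85, is the own-strand count of Mir1a-2, which lies opposite to Mir1b.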

How the results depend on the processing

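The 7 members called higher were also 7 with total counts, DESeq2 size factors, the negative binomial test (edgeR) and a 4-fold minimum. They were 8 with no filter (all genes, 199 of 758 higher), 6 with unstranded counts (176 of 435), 6 with total counts and Mir206 left out of library sizes and test (130 of 462), and 4 with at least 100 counts (158 of 295), where fewer genes are tested. Genes called higher numbered 188, against 122 with total counts and 110 at 4-fold, and genes called different numbered 370, against 200 at 4-fold. The family's mean share of 7.86% ranged from 0.00730% to 15.7% with either library alone, and was 0.0410% without Mir206 and 4.13% of all reads. The 5 opposite-strand counts at the members fell to 0 among members with no miRNA gene on the other strand. The log2 ratio of Mir1a-2 was 4.63, and 0.00 with unstranded counts. That of Mir1a-1 was 1.42, and 4.15 with 0.1 CPM added. Mir133a-2 was at 0 throughout, and the other 7 members kept their direction under every scaling, prior and column run. The planned search of the genome for mature arms was not run. A count of 0 leaves levels up to 1.00 and 0.838 CPM possible at this depth. That limit was applied to counts of 0 only, and the single read of Mir133b was used as counted. No paired analysis was possible because there is 1 group.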
